A study of Mus musculus with 10 samples.

Results

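Open chromatin was followed around 5 genes that mark formative pluripotency, Otx2, Fgf5, Pou3f1, Zic2 and Zic5, while mouse fibroblasts were reprogrammed. The elements are the ATAC-seq peaks that reached into a window from 50 kb before to 50 kb after each gene, in mm10 coordinates, in any of 10 deposited peak lists. Peaks of all lists that overlapped were joined, which gave 208851 regions in the genome, and 72 of these lay in the windows of the 5 genes. ATAC-seq uses a transposase that cuts open DNA, so a peak marks a stretch more accessible than its surroundings.

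There were 2 libraries at each of 5 stages. MEF are embryonic fibroblasts that carry a polycistronic OKSM cassette (Oct4, Klf4, Sox2 and Myc) in Col1a1 and the doxycycline-dependent activator M2rtTA in ROSA26, kept in MEF medium and collected before induction. DAY3, DAY6 and DAY9 are cells of the same genotype after 3, 6 and 9 days in ESC medium with 1 µg/ml doxycycline and 50 µg/ml ascorbic acid. Cells of DAY6 and DAY9 were sorted for SSEA1, a surface marker of cells on the way to pluripotency, and the other stages were unsorted. ESC is the embryonic stem cell line V6.5, which lacks the cassette, grown without doxycycline in ESC medium with serum and LIF on irradiated feeder cells. All groups share the C57BL/6 x 129 background and 1 batch name. The replicates are called biological, and the age of the embryos and whether replicates came from separate embryos or cultures are not given in the sources used here. The sort therefore coincides with DAY6 and DAY9, and the missing cassette with ESC.

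The formative state is the stage of the early epiblast that follows naive pluripotency and precedes the primed state, and cells pass through it when they become able to enter the germ layers or the germline. Otx2 is a homeodomain factor that drives the exit from the naive state and binds enhancers together with Oct4. Pou3f1, also called Oct6, is a POU factor of the epiblast and of neural cells. Zic2 and Zic5 are neighbouring zinc finger factors read from opposite strands, and Fgf5 is a secreted growth factor used as a marker of the epiblast after implantation. Embryonic stem cells in serum and LIF are mainly naive with a minority of cells further along.

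Library facts that touch the results are brief. The lists held 45497 to 88980 peaks, fewest in DAY3 and most in ESC. The deposited fold is the height of a peak over its local background, as a linear ratio, and the pileups behind it (overlapping fragments at the summit) were recovered from fold and p-value. The commonest background pileup was lowest in DAY6 replicate 2, at 2.327, and highest in MEF replicate 2, at 8.322. At these backgrounds a summit needed a fold of at least 3.61 in DAY6 replicate 2 and 2.57 in MEF replicate 2 to be listed, and the limit was 3.37 in DAY6 replicate 1, 3.40 in MEF replicate 1, 3.01 and 3.03 in DAY3, 2.64 and 2.63 in DAY9, and 3.35 and 2.94 in ESC. These limits hold at the commonest background. Where the local background was higher, peaks of lower fold were listed, down to 1.21 in MEF replicate 2. Where no peak is listed, accessibility was therefore under these limits or not detectable at this depth, and it is not shown to be absent. The summit pileups of the DAY3 libraries differed by 1.33 times counting noise and those of the DAY9 libraries by 1.42 times, against 3.61 to 8.11 in the other stages. The libraries of DAY3 differed by little more than sampling noise and were counted as 1 sample, and so were those of DAY9. That left 8 samples and no replicate error for these stages. In these bulk samples, more cells with an open element and a more open element in each cell cannot be told apart.

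Genes known from the start and end states were used to check the labels. Between MEF and ESC, at least 1 region was lost within 50 kb of 10 of 10 fibroblast and mesenchymal genes, and at least 1 region was gained at 12 of 12 naive genes. Over all protein-coding genes with a peak, 61.7% had a loss and 79.5% a gain. A gain was also found at 6 of the 10 fibroblast genes and a loss at 6 of the 12 naive genes. Losses outnumbered gains at 8 of the 10 fibroblast genes, while Snai2 and Fn1 went the other way. Gains outnumbered losses at all 12 naive genes, and at 11269 of all 21351 protein-coding genes. The naive windows held a median of 22.5 regions, against 15 over all protein-coding genes.

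The promoter sequences show where the peaks sit relative to the gene starts. RefSeq (GRCm38.p6) gave promoters, 300 bases reaching from before a transcript start to just inside it, for 3 of the 5 genes, namely 4 for Otx2 and 1 each for Fgf5 and Zic5. Pou3f1 and Zic2 were not matched. Capitals mark the core of the motif bound by KLF factors, GGGNGTG or CACNCCC on the other strand, where overlapping matches run together. Klf4 is one of the cassette's factors. The Fgf5 and Zic5 promoters are shown because peaks covered them in some stages only. The pair of Otx2 promoters is shown because the inner start acquired a peak late while the outermost start never had any.
Fgf5 promoter, plus strand, chr5:98253934-98254233: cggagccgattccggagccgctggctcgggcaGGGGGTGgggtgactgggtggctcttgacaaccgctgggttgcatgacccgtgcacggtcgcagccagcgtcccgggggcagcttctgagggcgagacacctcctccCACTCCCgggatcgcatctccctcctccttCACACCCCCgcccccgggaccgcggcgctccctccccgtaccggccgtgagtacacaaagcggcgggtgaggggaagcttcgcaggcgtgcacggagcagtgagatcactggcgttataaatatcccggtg
Zic5 promoter, minus strand, chr14:122465609-122465908: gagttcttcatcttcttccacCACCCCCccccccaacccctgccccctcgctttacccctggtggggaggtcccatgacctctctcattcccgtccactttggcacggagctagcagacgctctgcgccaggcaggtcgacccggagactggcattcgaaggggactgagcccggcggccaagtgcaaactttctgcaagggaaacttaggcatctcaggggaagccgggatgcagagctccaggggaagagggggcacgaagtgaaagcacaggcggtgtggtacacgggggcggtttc
Otx2 inner promoter, minus strand, chr14:48665060-48665359: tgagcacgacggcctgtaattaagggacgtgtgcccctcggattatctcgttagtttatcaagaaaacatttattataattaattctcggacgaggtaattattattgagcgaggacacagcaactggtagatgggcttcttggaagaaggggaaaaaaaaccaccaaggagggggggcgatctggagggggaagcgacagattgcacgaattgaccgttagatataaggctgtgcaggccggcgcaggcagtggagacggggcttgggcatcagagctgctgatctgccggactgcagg
Otx2 outermost promoter, minus strand, chr14:48667595-48667894: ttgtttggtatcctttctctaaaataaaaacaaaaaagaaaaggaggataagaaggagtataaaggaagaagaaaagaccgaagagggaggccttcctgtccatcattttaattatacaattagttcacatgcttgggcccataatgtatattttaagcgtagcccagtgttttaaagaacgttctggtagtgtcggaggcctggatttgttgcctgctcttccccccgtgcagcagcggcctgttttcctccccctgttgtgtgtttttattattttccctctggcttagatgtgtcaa

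The Fgf5 promoter held 4 KLF core matches and 29 CpG dinucleotides, and the Zic5 promoter held 1 match and 15 CpG. Neither Otx2 sequence shown held the core, and 3 matches were in a further Otx2 promoter at chr14:48662685-48662984. Of 32851 RefSeq promoters of this length, 29.2% held the core at least 1 time, and the median number of CpG was 7. The inner Otx2 promoter had 16 CpG and the outermost 6. An OTX motif, TAATCC on either strand (GGATTA), was found 1 time in the inner Otx2 promoter and in 7.06% of all promoters. These matches describe letters in the window and are not evidence of binding.

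A peak overlapped the Fgf5 promoter in 7 of 10 libraries: MEF replicate 1 and all libraries of DAY6, DAY9 and ESC. The Zic5 promoter sequence was overlapped in 6 libraries, namely DAY3 replicate 2, DAY6 replicate 1 and the DAY9 and ESC libraries. The inner Otx2 promoter had a peak in both DAY9 libraries and ESC replicate 2, and no library had a peak over the outermost Otx2 promoter. Among all promoters in the table, 34% had a peak in all 10 libraries and 44.5% in none.

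The first question was how much of the chromatin around these genes opened or closed at each step. A region is called gained when the later stage has a peak in both libraries and the earlier stage in neither. The reverse is called lost. With 2 libraries against 2 the smallest two-sided exact p-value is 0.333, so these calls have no p-value and are read against the share of all regions that the same rule called. From MEF to ESC, 20 of the 72 regions (27.8%) were gained, against 15.9% of all regions, and 8 (11.1%) were lost, against 11.1%. For the 72 regions together, the gained share was above the background and the lost share was equal to it. By locus, gains were 7 of 18 regions at Otx2, 9 of 19 at the Zic pair, 2 of 14 at Fgf5 and 2 of 21 at Pou3f1. Losses were 1, 0, 5 and 2 in the same order. The excess of gains thus lay in the Otx2 and Zic windows, and the Fgf5 and Pou3f1 windows had none.

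Step by step, 2 regions (2.78%) were gained and 8 (11.1%) lost from MEF to DAY3, where 5.43% and 10.4% of all regions were. From DAY3 to DAY6, 8 regions (11.1%) were gained and 1 (1.39%) lost, against 5.29% and 1.5%. Between DAY6 and DAY9 the gains were 8 (11.1%) and the losses 0, against 5.39% and 0.956%. From DAY9 to ESC, 6 (8.33%) were gained and 7 (9.72%) lost, against 9.1% and 9.24%. The gained shares were above the background at the steps to DAY6 and DAY9 in the full lists, with counts of 8 each. With lists of equal length the share gained at the step to DAY6 was under the background. With the strongest 50% of each list it was above, at 4.17% against 2.77%. The share gained at the step to DAY9 was close to the background with lists of equal length and with folds above the DAY6 limits.

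At the step from DAY6 to DAY9, 1 of the 8 regions had DAY9 folds that both DAY6 libraries could have listed at their commonest background. That is 1.39% of the 72 regions against 1.49% of all regions, so no excess was left. By the same restriction all 8 gains from DAY3 to DAY6 (11.1%, against 5.13% of all), all 6 from DAY9 to ESC (8.33%, against 8.91%) and 13 of the 20 from MEF to ESC (18.1%, against 12.4%) remained. The DAY6 limits lie above those of DAY3, and the ESC limits above those of DAY9. At these steps the restriction could therefore remove few regions, and it cannot decide whether the limits matter there. When only the 45497 strongest peaks of each list were used, 10 regions were gained from MEF to ESC (13.9%, against 7.97%). At that length the step to DAY6 gained 1 region (1.39%, against 2.68%), under the background, and the step to DAY9 gained 2 (2.78%, against 2.17%). The share gained from MEF to ESC was above the background in both settings, while the step to DAY6 was above it in the former alone and the step to DAY9 was close to it in both.

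Asking for 1 library in place of a pair raised the shares of all regions, while those of the members rose or stayed the same. Without MEF replicate 1, for example, gains from MEF to DAY3 stayed at 2 (2.78%, against 6.77% of all). The cases that follow are among those that rose. Without DAY6 replicate 2, 15 regions (20.8%, against 11.4% of all) were gained from DAY3 to DAY6 and 3 (4.17%, against 4.44%) lost from DAY6 to DAY9, where leaving out DAY6 replicate 1 gave 1 loss (1.39%, against 3.2%). Without MEF replicate 2, the losses were 16 to DAY3 (22.2%, against 20.6%) and 15 to ESC (20.8%, against 20.1%). Gains from DAY9 to ESC were 17 (23.6%, against 19.1%) without ESC replicate 1 and 11 (15.3%, against 17.7%) without ESC replicate 2. Gains from MEF to ESC without ESC replicate 1 were 30 (41.7%, against 27.5%). Without DAY3 replicate 2, 4 regions (5.56%, against 7.81%) were gained from MEF to DAY3 and 3 (4.17%, against 3.32%) lost to DAY6.

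**Figure D1:**
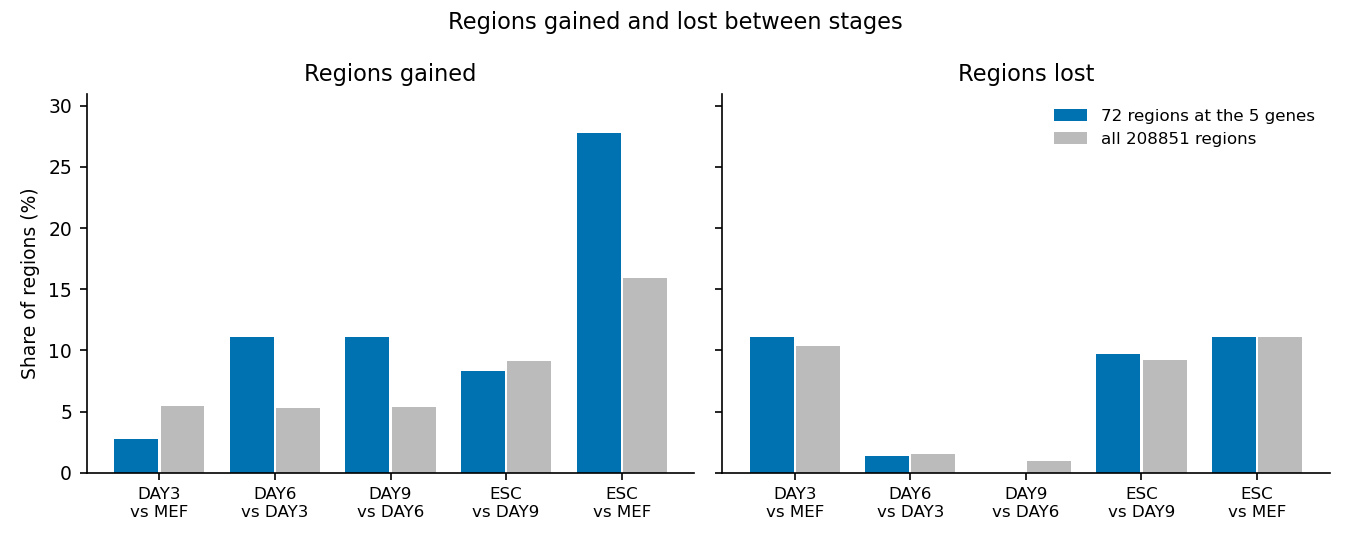
Share of regions gained (left) and lost (right) between stages, in percent, for the 72 regions at the 5 genes (blue bars) and for all 208851 regions (grey bars). The largest difference is at ESC against MEF, where 27.8% of the regions at the 5 genes and 15.9% of all regions were gained.

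Among the 20 regions gained in ESC, 1 (5%) had peaks in both libraries from DAY3, 4 (20%) from DAY6 and 8 (40%) from DAY9. The other 7 (35%) had them in ESC alone. Over the genome these shares were 8.69%, 14.7%, 15.7% and 60.9% of gained regions. A region counted from DAY9 can have been under the listing limits at DAY6. No peak in any DAY3, DAY6 or DAY9 library was listed at 5 of the 20 (25%), against 49.6% of all gained regions. Of the 8 lost regions, 7 (87.5%) had no DAY3 peak, against 79.4% of all lost regions. Peaks in all 10 libraries were found at 6 of the 72 regions (8.33%, against 7.35% of all), and peaks of both libraries of an intermediate stage without any MEF or ESC peak at 6 (8.33%, against 9.61%). A single library accounted for 19 of the 72 (26.4%, against 37.9%).

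The number of peaks in a window was then compared between stages for every gene in the annotation, after scaling to 10000 peaks of the list. A wide region can hold more than 1 peak of a list, so peaks and regions are counted separately. The share of the sum of squares lying between stages was tested by exact permutation, over the 420 ways to arrange the 8 samples. Of 48549 genes, 8247 (17%) had an unadjusted exact permutation p under 0.05 and 0 had a Benjamini-Hochberg adjusted p under 0.05 (0%). The smallest adjusted p was 0.216, so this design did not single out any gene.

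**Figure D2:**
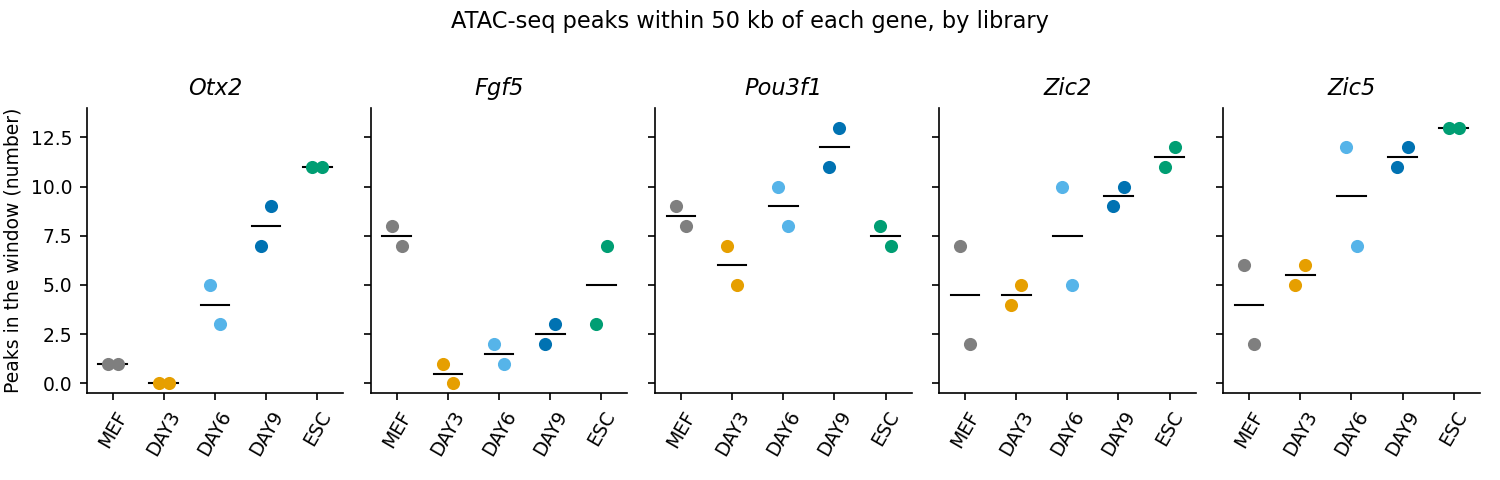
Number of peaks in the window of each gene (vertical axis) in each of the 10 libraries, by stage; points are libraries and black lines their means. Otx2 goes from 0 peaks in both DAY3 libraries to 11 in both ESC libraries, Fgf5 has most peaks in MEF (8 and 7), and Pou3f1 has most in DAY9 (11 and 13).

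Otx2 lies on chromosome 14, minus strand, from 48656781 to 48667644, and its window held 18 regions. The lists had 1 and 1 peaks there for MEF, 0 and 0 (DAY3), 5 and 3 (DAY6), 7 and 9 (DAY9) and 11 and 11 (ESC). The stages do not overlap in these counts. Per 10000 peaks the level was 0.145 ± 0.0150 for MEF, 0 for DAY3, 0.638 ± 0.183 for DAY6, 1.02 for DAY9 and 1.25 ± 0.0242 for ESC (± SD, n = 2). Stage accounted for 98.1% of the variation, and 2 of the 420 arrangements gave as much (exact permutation p = 0.00476, adjusted p = 0.216). With the 10 libraries counted separately the adjusted exact permutation p of Otx2 was 0.0438, and 1174 genes then had one under 0.05. Windows without any DAY3 peak belonged to 11.5% of the 21351 protein-coding genes with a peak, and to 0.265% of the 7923 whose windows held at least as many regions as that of Otx2. This comparison was not planned, so the shares are a description and not a test. The second set includes windows with more regions than that of Otx2, where a window without a DAY3 peak is less likely.

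The strongest Otx2 elements lay upstream, inside the long noncoding gene Otx2os1. The element 33.5 kb upstream of the outermost start, at chr14:48700711-48701636, had no peak in MEF or DAY3. Its fold was 3.59 and 4.21 (DAY6), 9.41 and 10.14 (DAY9) and 15.03 and 9.98 (ESC). The pileups behind these folds were 15 and 13, 91 and 86, and 189 and 85, so the DAY6 values rest on few fragments and lie close to the listing limit. It stood among the strongest 1.81% and 9.52% of peaks in the ESC lists.

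A neighbour 42.1 kb upstream, at chr14:48709307-48710248, followed the same order. Its fold was 6.29 and 3.91 (DAY6), 9.26 and 10.07 (DAY9) and 13.95 and 10.38 (ESC), again with no MEF or DAY3 peak. Every DAY9 value of this element and of the previous one exceeded every DAY6 value, while DAY9 and ESC overlapped at the element 33.5 kb upstream and not at the one 42.1 kb upstream. A further element 49.1 kb upstream had folds of 3 and 4.18 in DAY9 and of 11.73 and 2.94 in ESC, so the ESC libraries differed there by more than DAY9 differed from ESC replicate 2.

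Closer to the gene the peaks were low. Regions 1.4 kb upstream, 1.2 kb inside and 12.6 kb downstream of the outermost start had a peak in each DAY9 and ESC library, with folds between 2.53 and 5.63, and the last also in DAY6 replicate 1. The region over the inner start, at chr14:48664811-48665651, had folds of 3.3 and 3.24 in DAY9 and 2.59 in ESC replicate 2. Most of these folds lie under the limit of 3.61 in DAY6 replicate 2, and there a closed element and one under the DAY6 limit cannot be told apart. A region 6.8 kb upstream was the only Otx2 region gained from DAY9 to ESC, with folds of 3.57 and 4.49. The only fibroblast element, 12 kb upstream at chr14:48679337-48680022, had folds of 6.34 and 4.61 in MEF and no peak in any other library. In all, 7 of the 18 regions were gained from MEF to ESC and 1 was lost. Of the 7, 2 had peaks in both libraries from DAY6, 4 from DAY9 and 1 in ESC alone. A further 7 of the 18 had a peak in a single library.

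**Figure D3:**
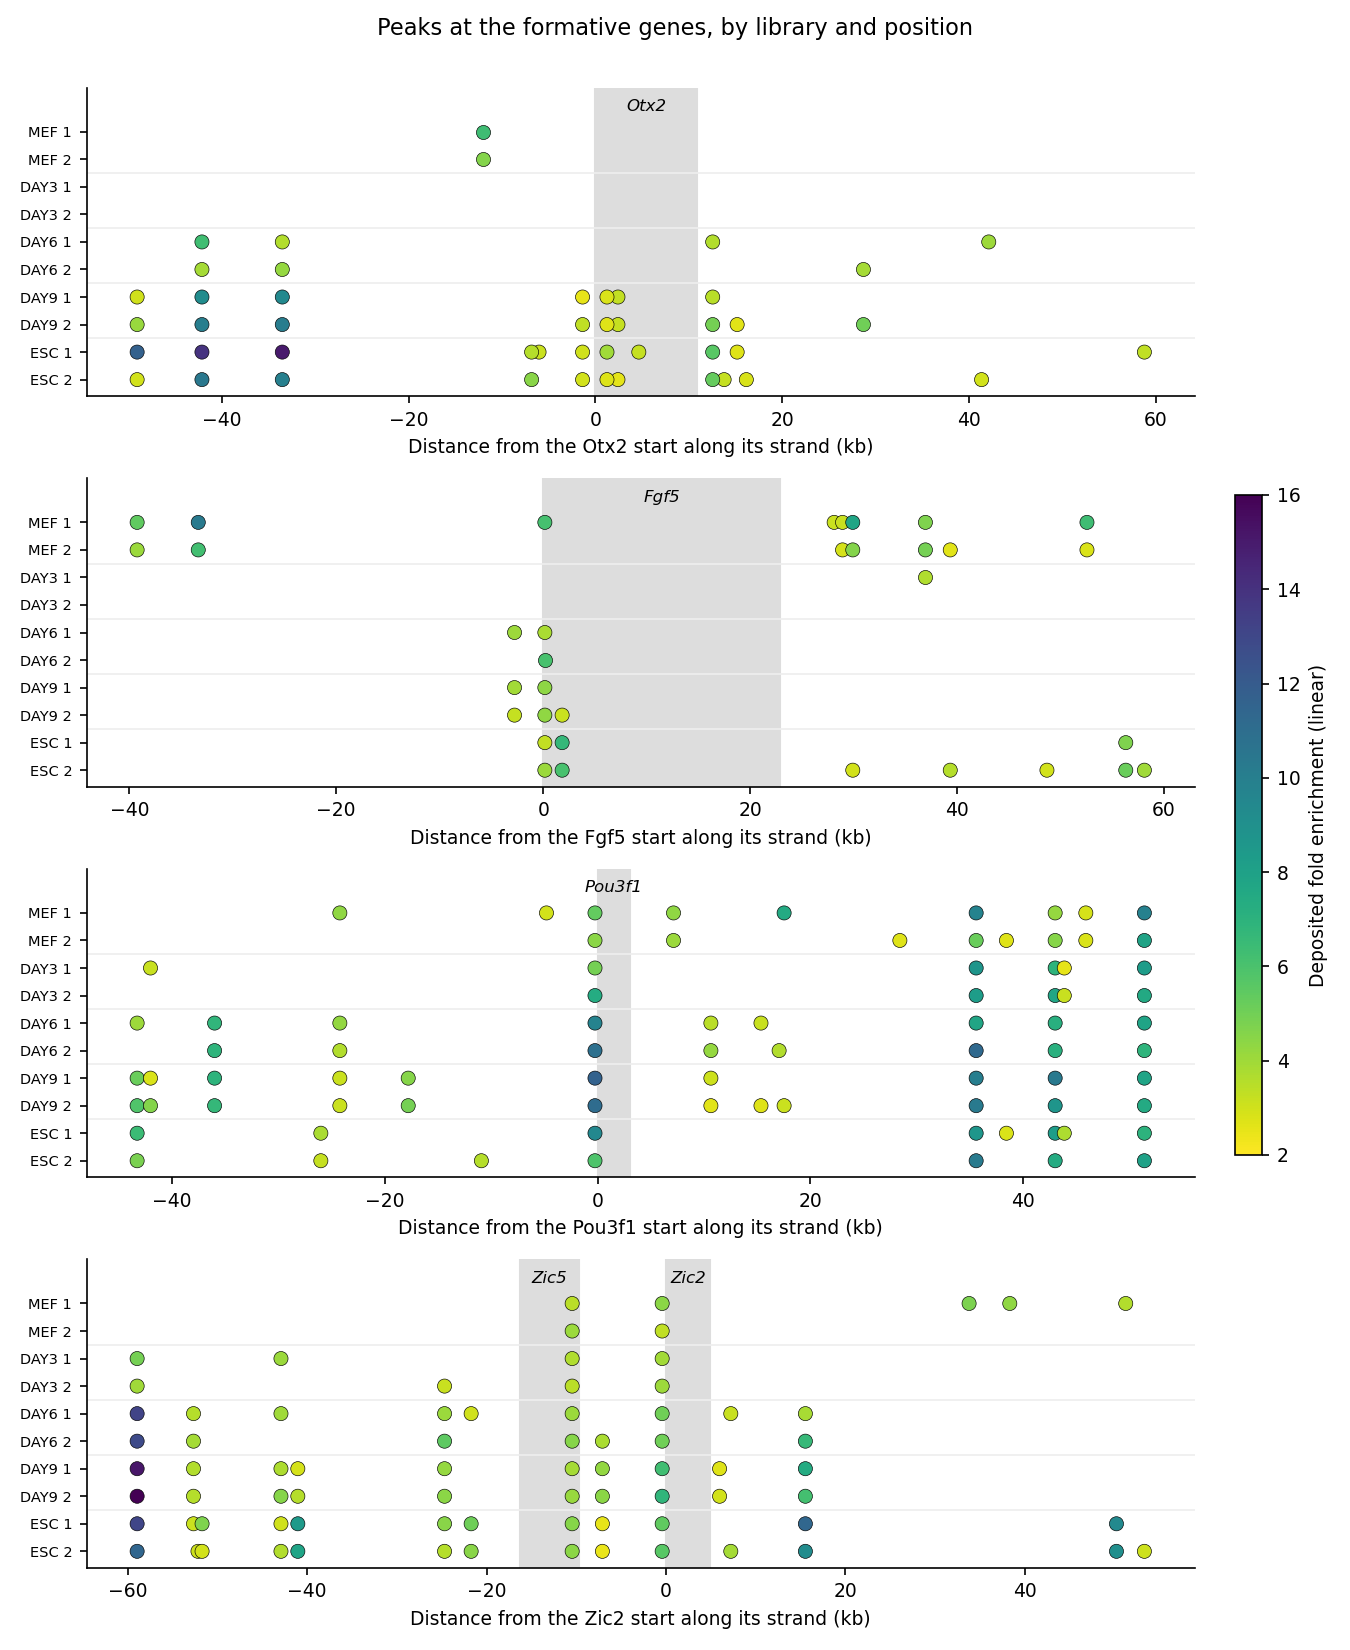
Position of every peak region in the windows of Otx2, Fgf5, Pou3f1 and the Zic pair (horizontal axis, distance from the named gene's start along its strand in kb) in each library (rows); colour gives the deposited fold on a linear scale and grey bands are the genes. The column of points 33.5 kb before Otx2 starts in DAY6, the Fgf5 window has 8 and 7 peaks in MEF and 1 and 0 in DAY3, and 4 regions of the Pou3f1 window have points in every row.

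Pou3f1 lies on chromosome 4 from 124657646 to 124660655, and its window held 21 regions. It also holds the protein-coding genes Utp11 and Fhl3. Peaks numbered 9 and 8 for MEF, 7 and 5 (DAY3), 10 and 8 (DAY6), 11 and 13 (DAY9) and 8 and 7 (ESC). Before scaling, counts of MEF, DAY6 and ESC overlap, and DAY9 is the highest stage. Per 10000 peaks the level was 1.23 ± 0.0250 for MEF, 1.31 for DAY3, 1.45 ± 0.126 for DAY6, 1.54 for DAY9 and 0.855 ± 0.0971 for ESC (± SD, n = 2). On this scale the libraries of DAY3, DAY6 and DAY9 overlap, and the ESC libraries, at 0.924 and 0.787, are the lowest. The between-stage share was 94.8%, with an exact permutation p of 0.0310 (13 of 420) and an adjusted p of 0.261. The unadjusted exact permutation p was 0.112 with base pairs under peaks and 0.3 with lists of equal length. With the 10 libraries counted separately the share was 78.9% (exact permutation p = 0.0741).

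The Pou3f1 start was open in every library, and its fold differed between stages. At chr4:124656494-124658322 the fold was 5.39 and 4.44 for MEF, 4.9 and 7.38 (DAY3), 9.72 and 10.87 (DAY6), 11.65 and 11.09 (DAY9) and 9.45 and 5.9 (ESC). The DAY6 and DAY9 libraries are all above the MEF, DAY3 and ESC libraries. Pileups of 383 and 343 stand behind the DAY9 values and of 57 and 50 behind those of ESC. Folds of separately called lists are descriptive and were not tested.

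A set of Pou3f1 elements was open only at intermediate stages in these lists. The strongest, 36 kb upstream at chr4:124621331-124622012 inside the noncoding gene Gm2164, had folds of 6.82 and 6.91 in DAY6 and 6.94 and 6.68 in DAY9. No MEF, DAY3 or ESC library had a peak there, although each of the 4 folds was above the listing limit of those libraries. A region 10.7 kb downstream of the start had folds of 3.47 and 4.21 in DAY6 and 3.05 and 2.62 in DAY9. A region 17.8 kb upstream had peaks in DAY9 alone, with folds of 4.56 and 4.9. A further region, 42 kb upstream, had folds of 2.81 and 4.58 in DAY9 and 3.17 in DAY3 replicate 1. These are the 4 transient regions of the window. The transient rule missed a region 24.2 kb upstream with peaks in both libraries of DAY6 and DAY9, because MEF replicate 1 had a peak there.

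From DAY9 to ESC the Pou3f1 window lost 5 of its 21 regions and gained 1, where 9.24% of all regions were lost and 9.1% gained. The lost regions 42 and 24.2 kb upstream and 10.7 kb downstream had a DAY9 fold under the limit of 3.35 in ESC replicate 1. There a closed element and one under the limit cannot be told apart. With folds above the other stage's limit, 2 losses were left over the 5 genes (2.78%, against 5.43% of all). The gained region lay 26 kb upstream, with folds of 3.79 and 3.25 in ESC. The strongest region gained from MEF to ESC lay 43.2 kb upstream at chr4:124614147-124614646, with folds of 4.04 in DAY6 replicate 1, 5.21 and 5.85 in DAY9, and 6.47 and 4.8 in ESC. Of the 2 regions lost between MEF and ESC the stronger lay 7.1 kb downstream of the start, with folds of 4.3 and 4.1 in MEF. Besides the start, 3 regions had peaks in all libraries: 35.6 kb downstream in Utp11, with folds of 5.19 to 11.25, and 43 and 51.4 kb downstream at Fhl3, with folds of 4.23 to 10.33 and 6.92 to 9.9. The one 43 kb downstream covers a RefSeq promoter of Fhl3.

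Zic5, minus strand, from 122459160 to 122465658, and Zic2, from 122475384 to 122480328, lie 9.7 kb apart on chromosome 14. Their windows held 16 and 15 regions, 12 of them shared, so the counts of the pair are not independent. Peaks in the Zic5 window numbered 6 and 2 for MEF, 5 and 6 (DAY3), 12 and 7 (DAY6), 11 and 12 (DAY9) and 13 and 13 (ESC). In the Zic2 window they numbered 7 and 2, 4 and 5, 10 and 5, 9 and 10, and 11 and 12. The ESC libraries had the most peaks in both windows before scaling, and the libraries of MEF and those of DAY6 differed widely from each other. Per 10000 peaks, Zic2 stood at 0.626 ± 0.445 for MEF, 0.986 for DAY3, 1.19 ± 0.486 for DAY6, 1.22 for DAY9 and 1.31 ± 0.0553 for ESC (± SD, n = 2). Zic5 stood at 0.559 ± 0.350, 1.21, 1.51 ± 0.463, 1.47 and 1.48 ± 0.0286 in the same order. On this scale DAY6 replicate 1 was the highest library in both windows, at 1.54 and 1.84, and the Zic5 means from DAY6 to ESC lay within the DAY6 spread. The between-stage share was 56.4% for Zic2 (exact permutation test, p = 0.548, adjusted p = 0.686) and 78.7% for Zic5 (exact permutation test, p = 0.250, adjusted p = 0.458). Leaving out MEF replicate 2 gave Zic2 a share of 34.9%. Equal list lengths gave it 90.2%, and it was 92.7% when base pairs under peaks replaced the number of peaks (exact permutation p = 0.0452, adjusted p = 0.220).

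Both gene starts lay in wide regions that held a peak somewhere in all 10 libraries, chr14:122463826-122466033 for Zic5 and chr14:122473896-122476033 for Zic2. The start base itself was covered in fewer. No MEF peak covered the Zic2 start, and the peaks that did had folds of 3.47 and 4.07 (DAY3), 5.05 and 5.05 (DAY6), 6.32 and 6.85 (DAY9) and 5.43 and 5.62 (ESC). All DAY9 values exceeded those of the other stages at the Zic2 start, and the DAY3 values were the lowest of the peaks over it. In the whole Zic2 region the most significant peaks had folds of 4.45 and 3.33 in MEF and of 3.92 and 4.07 in DAY3. There MEF and DAY3 overlapped. At the Zic5 start, peaks in 6 libraries covered the base, with folds of 3.23 in DAY3 replicate 2, 2.59 in DAY6 replicate 1, 3.89 and 2.73 in DAY9, and 4.56 and 4.41 in ESC. The ESC libraries were the highest at that base. In the whole Zic5 region the folds were 3.47 and 4.08 (MEF), 3.69 and 3.47 (DAY3) and 4.13 and 4.53 (DAY6). They were 3.89 and 4.17 in DAY9 and 4.56 and 4.41 in ESC, so DAY6 and ESC overlapped over the region.

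The strongest element of all 5 genes lay 49.2 kb downstream of the Zic5 start, at chr14:122415895-122416960 inside the noncoding gene Gm5089. No MEF library had a peak. Its fold was 4.92 and 3.99 in DAY3, 13.19 and 12.87 (DAY6), 15.16 and 16.35 (DAY9) and 13.05 and 11.44 (ESC). It stood among the strongest 1.23% and 1.32% of peaks in the ESC lists and 2.69% and 2.24% in the DAY9 lists, but at 50.02% and 65.61% in those of DAY3. This was the only gained region at the 5 genes with peaks in both libraries as early as DAY3. It lay outside the window of Zic2.

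Other Zic elements were first listed in both libraries of a later stage. A region 15.5 kb downstream of the Zic2 start, at chr14:122490406-122491460 inside Pcca, had folds of 3.82 and 6.61 (DAY6), 7.45 and 6.21 (DAY9) and 11.37 and 9.26 (ESC). Both ESC libraries were above all others. A region 31.3 kb downstream of the Zic5 start, at chr14:122433841-122434847, had folds of 2.88 and 3.58 in DAY9 and 8.4 and 7.8 in ESC.

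A group of 3 Zic elements passed the rule in ESC alone. The region 50.2 kb downstream of Zic2, at chr14:122525201-122526027 in Pcca, had folds of 9.4 and 9.07 in ESC and no peak in the 8 other libraries, all of which could list such a fold at the background limits given above. A region 42 kb downstream of the Zic5 start had folds of 4.69 and 2.94 in ESC alone. A region 12 kb downstream of the Zic5 start had folds of 5.09 and 4.49 in ESC and a peak of fold 3 in DAY6 replicate 1. Over both windows 9 of 19 regions were gained from MEF to ESC and 0 were lost. The single transient region, 6 kb downstream of the Zic2 start, had low folds of 2.68 and 2.93 in DAY9. In Pcca, 3 regions had a peak in MEF replicate 1 alone, with folds of 3.62 to 4.76.

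Fgf5, plus strand, lies on chromosome 5 from 98254184 to 98277033, and no other annotated gene reaches into its window of 14 regions. Peaks numbered 8 and 7 for MEF, 1 and 0 (DAY3), 2 and 1 (DAY6), 2 and 3 (DAY9) and 3 and 7 (ESC). Fibroblasts had the most peaks, with 1 ESC library reaching as many as MEF replicate 2. Per 10000 peaks the level was 1.08 ± 0.00997 for MEF, 0.109 for DAY3, 0.238 ± 0.0972 for DAY6, 0.320 for DAY9 and 0.567 ± 0.311 for ESC (± SD, n = 2). The between-stage share was 90.4%, with an exact permutation p of 0.117 (49 of 420) and an adjusted p of 0.350.

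The fibroblast elements of Fgf5 lay on both sides of the gene. The strongest, 33.3 kb upstream at chr5:98220458-98221240, had folds of 10.28 and 6.22 in MEF, with pileups of 50 and 57, and no peak in any other library. A second one 39.2 kb upstream had folds of 5.44 and 4.08 in MEF alone. Downstream, 4 regions between 28.9 and 52.5 kb from the start had peaks in both MEF libraries, with folds of 2.79 to 7.79. Of these, the region 29.9 kb downstream also had a peak of fold 2.94 in ESC replicate 2, and the region 36.9 kb downstream a peak of 3.65 in DAY3 replicate 1. Over the window 5 regions were lost from MEF to ESC, and the 4 of them other than that 36.9 kb downstream had no DAY3 peak. ESC were grown on irradiated feeder cells, and the part of feeder cells in the ESC peaks was not tested.

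Pluripotent elements of Fgf5 were few. The region over the start, chr5:98253740-98254947, had a fold of 6.12 in MEF replicate 1, no peak in MEF replicate 2 or DAY3, then 3.75 and 6.06 (DAY6), 4.37 and 4.3 (DAY9) and 3.27 and 4.1 (ESC). The MEF libraries disagree at this promoter, so it was not called gained from MEF to ESC. A region 1.8 kb inside the gene, at chr5:98255658-98256368, had a fold of 3.11 in DAY9 replicate 2 and of 6.67 and 6.05 in ESC. It is the stronger of the 2 regions gained from MEF to ESC. The other lay 56.3 kb downstream of the start, with folds of 4.68 and 5.19 in ESC and no peak elsewhere. A transient region 2.8 kb upstream had folds of 4.05 in DAY6 replicate 1 and 3.96 and 3.22 in DAY9.

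**Figure D4:**
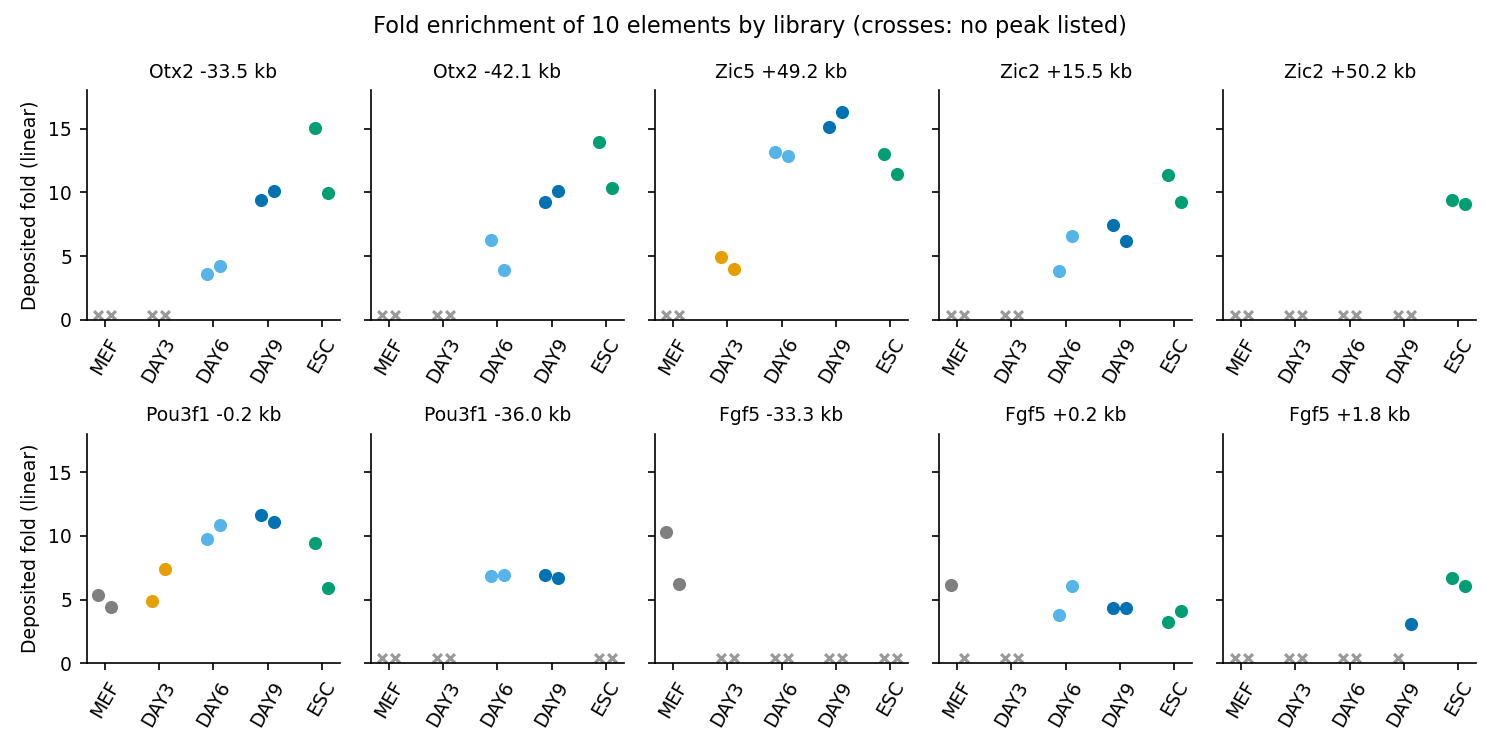
Deposited fold (vertical axis, linear) of 10 elements in each library by stage; each point is a library and crosses mark libraries with no listed peak. The 2 Otx2 elements and the Zic2 element 15.5 kb downstream reach their highest value in an ESC library, the Zic5 element 49.2 kb downstream is highest in DAY9, the Pou3f1 element 36 kb upstream has points in DAY6 and DAY9 alone, and the Fgf5 element 33.3 kb upstream has points in MEF alone.

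Set side by side, the 5 genes differed in when their windows were open. In the Otx2 and Zic windows the regions with peaks in both libraries numbered 1 and 2 for MEF, 0 and 3 (DAY3), 2 and 6 (DAY6), 7 and 10 (DAY9) and 7 and 11 (ESC). In the Pou3f1 window they numbered 6, 5, 7, 10 and 6 in the same order, and in the Fgf5 window 6, 0, 1, 2 and 3. Over all 72 regions 20.8% were open in MEF, 11.1% in DAY3, 22.2% in DAY6, 40.3% in DAY9 and 37.5% in ESC, against 22.1%, 16.9%, 21.7%, 30.8% and 28.2% of all regions.

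The same windows were drawn around other genes of related states. Of 12 further formative and early epiblast genes, 11 had at least 1 region gained from MEF to ESC and 5 at least 1 lost, with medians of 3 gained and 0 lost. Over all protein-coding genes 79.5% had a gain and 61.7% a loss, and the medians were 2 and 1. Over the 5 members the medians were 7 and 1, with gains of 7 (Otx2), 2 (Fgf5), 2 (Pou3f1), 7 (Zic2) and 8 (Zic5). The Zic windows share 12 regions and had 9 gains between them, so that locus enters the member median as 2 genes. Lef1, a transcription factor of Wnt signalling, had 13 regions gained, and Foxd3, a forkhead factor of the epiblast, had 6. Grhl2, a factor of epithelial enhancers, had 5 and Tcf15, a factor of epiblast priming, 4. The peak number passed an unadjusted exact permutation p of 0.05 for 4 of the 12, and for 2 of the 5 members, against 17% of all genes, and the adjusted value for 0. Etv4, an ETS factor downstream of FGF signalling, had 0 regions gained and 4 lost.

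Of 6 primed and gastrulation genes, 4 had a gain and 2 a loss, with medians of 2.5 and 0, and Eomes, a T-box factor of the primitive streak, and the homeobox genes Nkx1-2 and Cdx2 had 4 gained each. All 12 naive genes had a gain, with a median of 7 gained and 0.5 lost. All 6 neural genes had a gain, with a median of 3 gained and 1 lost, and all 5 primitive endoderm genes, with a median of 2 gained and 0 lost. Of all protein-coding genes with a peak, 79.5% had a gain and 61.7% a loss. The primed list, with 66.7% of its genes gaining a region, was under the former share. The neural and primitive endoderm lists are short, so a gain at all of their genes is not far from it. The shares of these lists were not tested against each other.

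Genes on other chromosomes whose scaled peak number followed each member over the 8 samples were found by Pearson correlation, as a description. The closest were Pcdhb12, Crtap and Wdr63 for Otx2 (r = 0.986, 0.981 and 0.976), and B3galt1, Tac1 and Enox1 for Fgf5 (0.971, 0.967 and 0.966). For Pou3f1 they were Wdr66, Dact2 and Plppr3 (0.981, 0.979 and 0.979). For Zic2 they were Cetn3, 1700019D03Rik and Reep3 (0.967, 0.956 and 0.951), and for Zic5 Ro60, Cetn3 and Eml4 (0.986, 0.984 and 0.968). Each was the best of 14209 to 17077 candidate genes, and the points share libraries and list lengths.

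At the window edges the choice of 50 kb mattered for single regions. The outermost Otx2 region inside lay 48.8 kb from the gene with peaks in 4 libraries, and the nearest outside 50.3 kb away with a peak in 1. For Zic2 these were 48.2 kb with a peak in 1 library and 51.5 kb with peaks in both ESC libraries, and for Zic5 47.9 kb with 1 library and 50.3 kb with 1. For Pou3f1 they were 47.8 kb with 10 libraries and 50.9 kb with 5, and for Fgf5 39.0 kb with 2 and 52.0 kb with 10.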

How the data were processed

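Each of the 10 libraries came as a deposited peak list of 10 columns without header, with no summit position. Per the submitters' processing notes, Bowtie2 2.3.2, MACS2 2.1.1, deepTools 2.3.6 and build mm10 were used; parameters, filters, duplicate handling and transposase offset are not given in the sources used here. The deposited fold is a linear ratio over local background, p-values and q-values are deposited as −log10, and the deposited score is 10 times −log10 p rounded down. No file gives read counts, so library depth is known only through the background pileup.

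Peaks overlapping by at least 1 bp were joined over all lists, and a region's value in a library is the fold of its most significant peak; at the Zic2 and Zic5 starts, peaks over the start base were used, a choice made after seeing the values. Whole summit pileups were recovered from fold and −log10 p (tolerance 0.01, −log10 p up to 300) and compared between libraries at heights of 100 to 200. Gene coordinates came from RefSeq (GRCm38.p6), the same build as mm10; strands came from its promoter table, except those of Pou3f1 and Zic2, which were taken as plus from general knowledge. The between-stage test ran on every gene with a peak in its window, with Benjamini-Hochberg adjustment, using Python 3.11.15, numpy 2.4.6, pandas 2.3.3 and scipy 1.17.1, after tests on simulated data. P-values measure the spread between these samples, which may be technical.

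The members and lists were chosen with earlier results of these data known. Regions were named by rule: over the start, strongest gained and lost between MEF and ESC, strongest transient, strongest gained from DAY9 to ESC, and those in all libraries; the other regions were chosen after their values were seen. Genes alike were the 3 with the highest r, and list genes those with most gains; Etv4 was chosen after its values were seen.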

Additional observations from a re-analysis of the deposited data

How the results depend on the processing

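The alternatives were planned, except the restriction to folds that the other stage could list, which was chosen after seeing the data. Otx2 with all 10 libraries counted separately had a between-stage share of 97.3% (exact permutation test, adjusted p = 0.0438, with 1174 genes past 0.05 where the 8 samples gave 0). Since no gene passed with 8 samples, the side of the threshold says nothing about the stability of the other shares. The unadjusted exact permutation p of Pou3f1, 0.0310, was 0.0741 with all 10 libraries counted separately, where the between-stage share was 78.9%. The same p was 0.136 without scaling, 0.112 with base pairs and 0.3 with lists of equal length. With windows of 25 kb this p was 0.157, and with the replicate block 0.142. Leaving out 1 library gave shares of 97.6% to 99.96% for Otx2, 85.8% to 99.1% for Fgf5, 93.8% to 97.9% for Pou3f1, 34.9% to 78.9% for Zic2 and 66.1% to 92.2% for Zic5. The cause was not tested.

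Gained and lost regions are given in the order MEF to DAY3, DAY3 to DAY6, DAY6 to DAY9, DAY9 to ESC and MEF to ESC, each time followed by the percentages of all regions. With the strongest 50% of each list, gains were 0, 3, 2, 4 and 11 (2.71, 2.77, 2.94, 5.08 and 8.08%) and losses 3, 0, 0, 2 and 3 (5.28, 0.704, 0.489, 5.21 and 5.51%). With 45497 peaks per list, gains were 2, 1, 2, 4 and 10 (6.56, 2.68, 2.17, 4.85 and 7.97%) and losses 4, 1, 0, 3 and 5 (5.74, 2.52, 1.46, 6.49 and 7.98%). With windows of 25 kb, which hold 39 regions, gains were 0, 4, 6, 2 and 10 and losses 4, 0, 0, 5 and 4, with the percentages of all regions as in the main calls. With peaks required to cover 50% of the region, gains from MEF to DAY3 were 4 (4.9%). With folds above the other stage's limit, gains were 1, 8, 1, 6 and 13 (3.86, 5.13, 1.49, 8.91 and 12.4%) and losses 5, 0, 0, 2 and 5 (7.42, 0.561, 0.941, 5.43 and 7.02%). Leaving out 1 library gave gains of 2 to 4, 8 to 15, 8 to 12, 6 to 17 and 20 to 30, and losses of 8 to 16, 1 to 3, 0 to 3, 7 to 10 and 8 to 15, with fewer libraries to satisfy and higher percentages of all regions in each case.

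With the replicate block, where a region counted if 1 same-numbered pair of libraries changed and the other pair did not change the opposite way, gains were 5, 19, 16, 23 and 37 (11.9, 18.5, 18.7, 29.9 and 40.8%) and losses 20, 3, 4, 12 and 17 (29.5, 6.95, 7.85, 20.8 and 28.5%). The numbers were not read as a pairing, since over 10 pairs of stages the correlation of deviations at equal numbers was -0.0095 to 0.022. Of the values with 1 library left out, 81 stayed within the limits set for a change and 9 moved. Of those under the other alternatives, 50 stayed, 39 moved and 1 became stronger. Depth limits each missing peak to the folds given for its library.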
